A study of Mus musculus with 2 samples.

Results

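The 8 genes Fabp7, Gfap, Sox10, Ngfr, Erbb3, Nes, S100b and Penk, which mark the neural crest and the Schwann cell lineage, were followed in cultured mouse embryonic fibroblasts. They were chosen by name from the 25430 distinct gene names of the deposited expression table, which lists them in capitals (FABP7, GFAP, SOX10, NGFR, ERBB3, NES, S100B and PENK). Each name matched 1 row, and 6 of the 8 were measured, meaning that their mean over both libraries was 1 FPKM or more. FPKM are sequenced fragments divided by transcript length and by library size, which is meant to make levels comparable between genes and between libraries. The columns of the 2 libraries nonetheless differ in their sums, given below, so differences between them depend on the scaling. Of all names, 11070 were measured.

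The cells were primary fibroblasts, connective tissue cells grown on plastic, from embryos of stage E13.5 whose parents were both heterozygous for Sptbn1. There was 1 library of wild-type cells and 1 of Sptbn1 knockout cells, named β2SP-/- and homozygous in the series' title. Sptbn1 encodes beta-2 spectrin (β2SP), which ties membrane proteins to the cytoskeleton. No treatment is named in the labels, and the number of embryos behind a library is not stated there. With 1 library per genotype there is no spread between cultures, so no test was made and every difference is between these 2 libraries.

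The neural crest is a migratory cell population that leaves the dorsal neural tube and forms peripheral neurons, glia, melanocytes and part of the connective tissue of the head. Schwann cell precursors, the glia of embryonic nerves, keep the crest transcription factor SOX10 and depend on neuregulin signalling through ERBB3 with its partner ERBB2. As they mature they use Fabp7, Ngfr, S100b and Gfap in overlapping periods. Embryos minced for fibroblast culture contain nerves and skin, so cells of this lineage can be carried along. Several of the genes are also used elsewhere, Nes in dividing progenitors of muscle and vessels, S100b in cartilage, and Penk in mesenchyme.

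The targeted gene was lower in the library labelled knockout. Sptbn1, listed under the older name Spnb2, stood at 69.6 FPKM in wild-type cells and 36.6 FPKM in knockout cells, which left 52.5% of the wild-type level. That share holds for the deposited scale only, and why transcript remained in knockout cells was not tested. The wild-type column summed to 386567 FPKM and the knockout column to 279927 FPKM, and the number of fragments behind them is unknown. Among 3081 genes above 0 in both libraries with a mean under 0.3 FPKM, the commonest log2 ratio was 0.69, shared by 382 genes within 0.005, so each fragment counted for 1.61 times more FPKM in knockout than in wild-type cells, whose library was the deeper. Differences below are log2((knockout + 1)/(wild type + 1)), with 1 FPKM added to each value, which understates the difference of low genes. The median measured gene stood at -0.05 on this scale.

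The 8 genes did not shift as a block. Fabp7, Gfap and Nes, which encode a lipid carrier and intermediate filament proteins of glia and progenitors, were higher in the knockout library. Sox10, Ngfr, Erbb3, S100b and Penk were lower there. Once both libraries were scaled to a common FPKM sum, however, Ngfr and Erbb3 turned to 0.08 and 0.05 and Sox10 came to -0.04. The higher genes together summed to 27.9 FPKM in wild-type cells and 43.3 FPKM in knockout cells. The lower genes summed to 22.5 and 12.8 FPKM. These genes were grouped by their direction in these same libraries, so the directions of the sums were fixed in advance. Most of each gap came from a single gene. Fabp7 was at 16.5 FPKM in wild-type and 27.2 FPKM in knockout cells, and Penk at 11.3 and 4.49 FPKM. Over all 8 the sums were 50.4 FPKM in wild-type and 56.1 FPKM in knockout cells. In RNA from whole cultures, fewer cells of a type and less RNA per cell cannot be told apart. The plot of levels by library shows the crossing order.

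**Figure D1:**
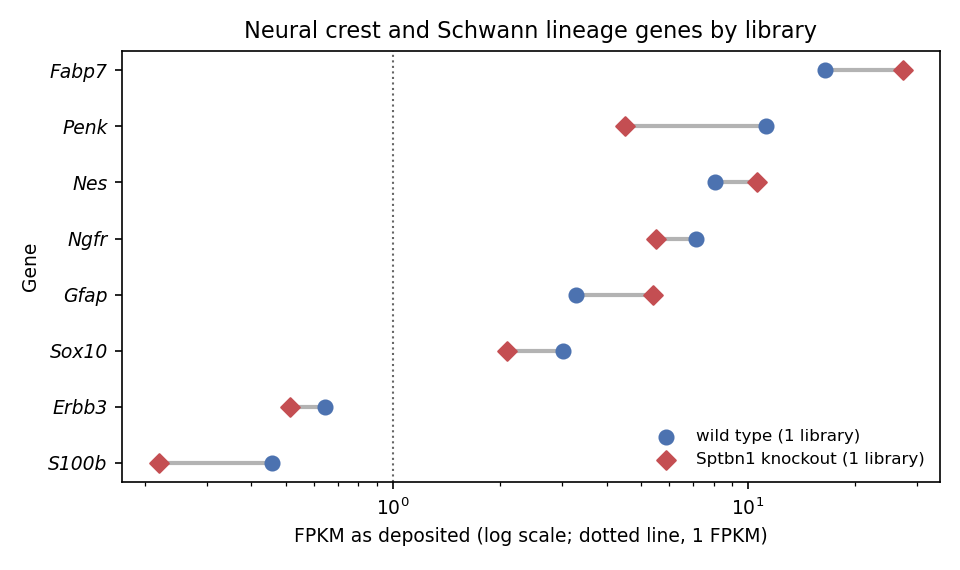
Level of each of the 8 genes in FPKM (log axis) in the wild-type library (circles) and the Sptbn1 knockout library (diamonds), 1 library each. Fabp7 was the highest in both libraries, S100b the lowest, and Penk ranked 2 in the wild-type library and 5 in the knockout library.

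Sequence just ahead of the transcription start is printed for the genes that were higher in the knockout library. They were picked by their direction in these same libraries, and the search also covered Ngfr and S100b, which were lower. RefSeq promoter windows (build GRCm38.p6, which is a later build than that of the alignment) were matched by symbol for 5 of the 8 genes, Fabp7, Gfap, Nes, Ngfr and S100b. The 250 bases before the annotated start of the 3 higher genes are given 5′ to 3′ on the gene's own strand, from chr10:57784673-57784922 (plus strand, Fabp7), chr11:102897201-102897450 (minus strand, Gfap) and chr3:87970843-87971092 (plus strand, Nes). Capitals mark each match, on either strand, to any of 7 motifs searched: the SOX cores ACAAAG and AACAAT, the E-box CAGCTG, the GC box GGGCGG, the RBPJ core TGGGAA, the STAT motif TTCCNNGAA and the AP-1 motif TGANTCA. None of the matches overlapped.
Fabp7: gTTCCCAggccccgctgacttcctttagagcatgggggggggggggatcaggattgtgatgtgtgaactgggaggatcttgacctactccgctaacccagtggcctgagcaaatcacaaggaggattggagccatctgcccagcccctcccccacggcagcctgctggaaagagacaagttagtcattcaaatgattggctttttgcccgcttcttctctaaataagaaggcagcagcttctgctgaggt
Gfap: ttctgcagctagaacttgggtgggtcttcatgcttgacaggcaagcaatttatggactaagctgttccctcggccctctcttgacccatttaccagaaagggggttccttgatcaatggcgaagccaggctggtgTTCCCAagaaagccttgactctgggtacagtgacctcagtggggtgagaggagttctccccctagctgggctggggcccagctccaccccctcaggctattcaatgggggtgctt
Nes: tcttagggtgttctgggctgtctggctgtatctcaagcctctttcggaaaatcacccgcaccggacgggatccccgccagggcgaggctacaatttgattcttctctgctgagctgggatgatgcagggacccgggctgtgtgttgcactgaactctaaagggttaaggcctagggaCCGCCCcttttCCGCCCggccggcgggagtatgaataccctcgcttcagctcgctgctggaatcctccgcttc

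The 3 windows did not share a motif. Fabp7 and Gfap each held 1 RBPJ core on the reverse strand, the sequence read by the DNA-binding partner of Notch, at 249 to 244 bases before the start in Fabp7 and 115 to 110 in Gfap. The same core stood 234 to 229 bases before the start of S100b, which was lower in the knockout library. This core was found in 21.6% of all 32851 windows of the same length. Nes held a pair of GC boxes on the reverse strand, at 73 to 68 and 62 to 57 bases before the start, and Ngfr held 4 of them and 1 E-box. GC boxes were found in 32.7% of all windows and the E-box in 13% of them. The SOX cores (16.5% and 9.42% of all windows), the STAT motif (4.06%) and the AP-1 motif (6.75%) had no match in the 5 windows, which says only that these letters are not there. G and C made up 70.4% of the Ngfr window, 58.8% of the Nes window, 55.6% of the Gfap window, 54.8% of the Fabp7 window and 53.6% of the S100b window, against a median of 52.4% over all windows. A match is a stretch of letters and does not show binding.

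Sox10, the transcription factor that defines crest-derived glia and switches on much of their programme, was listed at 3.01 FPKM in wild-type cells and 2.09 FPKM in knockout cells. The knockout library thus held 69.5% of the wild-type level, or a log2 ratio of -0.38. On a common FPKM sum the ratio was -0.04, so its size depends on the scaling. The authors' deposited table lists a p-value of 0.0981 for it. Fabp7 was listed at 5.47 times the Sox10 level in wild-type cells and 13.0 times in knockout cells.

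The receptors Ngfr and Erbb3 were lower by similar proportions. Ngfr, the low-affinity neurotrophin receptor often used to sort crest cells, was at 7.13 FPKM in wild-type cells and 5.51 FPKM in knockout cells, or a log2 ratio of -0.32, and the authors' deposited table lists p = 0.0872. Erbb3, the neuregulin receptor that carries survival signals in Schwann precursors, was at 0.646 and 0.513 FPKM, under the measured limit in both libraries. Its log2 ratio was -0.12, and the authors' deposited table lists p = 0.443. Without the added 1 FPKM the knockout level was 77.3% of wild type for Ngfr and 79.5% for Erbb3. Ngfr exceeded Erbb3 by 11.0 times in wild-type cells and 10.7 times in knockout cells. With Erbb3 under the measured limit, these ratios are imprecise and do not show that the proportion was kept.

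Fabp7, the brain-type fatty acid binding protein of radial glia and Schwann precursors, was the highest of the 8 in both libraries. It was listed at 16.5 FPKM in wild-type cells and 27.2 FPKM in knockout cells, or a log2 ratio of 0.69, and the authors' deposited table lists p = 0.00445. It made up 32.7% of the summed level of the 8 genes in wild-type cells and 48.6% in knockout cells. Below it the order of the other genes was the same in both libraries apart from Penk.

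Gfap and Nes, which encode intermediate filament proteins, were both higher in the knockout library. Gfap, the filament of astrocytes and non-myelinating Schwann cells, was at 3.28 FPKM in wild-type cells and 5.41 FPKM in knockout cells, 165% of the wild-type level, with a log2 ratio of 0.58. Nes, the nestin filament of dividing progenitors, was at 8.10 and 10.6 FPKM, 131% of the wild-type level, with a log2 ratio of 0.35. The authors' deposited table lists p = 0.0130 for Gfap and p = 0.0216 for Nes. Nes stood above Gfap in each library, by 2.47 times in wild-type cells and 1.96 times in knockout cells.

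S100b, a calcium-binding protein used as a marker of Schwann cells, was the lowest of the 8. It was listed at 0.456 FPKM in wild-type cells and 0.220 FPKM in knockout cells. The knockout level was 48.3% of wild type, but both values were under the measured limit, the log2 ratio with 1 FPKM added was -0.25, and the authors' deposited table lists p = 0.147. With 0.1 FPKM added in place of 1 the ratio was -0.80, so its size depends on that choice.

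Penk, the precursor of the enkephalin opioid peptides, differed most on the deposited scale, whereas on a common FPKM sum it was at -0.75 and Fabp7 at 1.14, Gfap at 0.96 and Nes at 0.77 differed more. It was listed at 11.3 FPKM in wild-type cells and 4.49 FPKM in knockout cells, 39.9% of the wild-type level. The log2 ratio was -1.16, and the authors' deposited table lists p = 1.78e-05. Its share of the summed level of the 8 genes was 22.4% in wild-type cells and 8.01% in knockout cells. Fabp7 exceeded Penk by 1.46 times in wild-type cells and 6.06 times in knockout cells.

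Set against all measured genes, 1 of the 6 measured lineage genes (Fabp7) was at least 1.5-fold higher in knockout cells with 1 FPKM added. Of measured genes 1.04% were. On the lower side 1 (Penk) was at least 1.5-fold lower, where 1.23% were. Gfap, at 0.58, lay just under the 1.5-fold line only through the added 1 FPKM. Without it Fabp7 and Gfap were both at 165% of the wild-type level. None was at least 2-fold higher (0.361% of measured genes) and Penk was at least 2-fold lower (0.379%). On a common FPKM sum these 2-fold calls changed to 1 higher (Fabp7) and 0 lower, beside 100 and 26 of the 11070 measured genes. With Mir682 and Dnaja1 left out of that sum they changed to 0 and 0, beside 59 and 28 genes. Penk was then at -0.93 and Fabp7 at 0.95. Among genes at similar levels, 2.78% of those at 20 FPKM or above were at least 1.5-fold higher, the band of Fabp7, and 0.276% of those between 5 and 20 FPKM were at least 2-fold lower, the band of Penk. All 6 lay at or beyond 0.25 from 0, a line drawn after their values were seen, with 3 higher and 3 lower, while 6.02% of measured genes were that far up and 11.9% that far down. Their median was 0.02. Since the 8 were proposed with earlier results of these data known, these counts are no support for a change of the lineage.

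**Figure D2:**
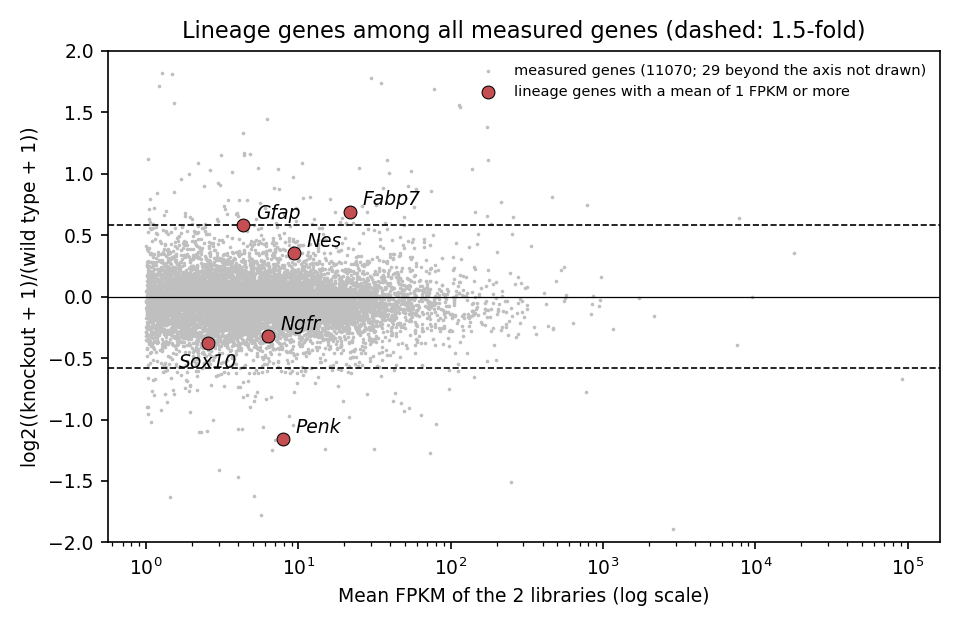
Difference between libraries (log2 ratio with 1 FPKM added) against mean FPKM (log axis) for the 11070 measured genes (grey, with 29 beyond the axis not drawn) and the 6 measured lineage genes (red). Fabp7 lies above the upper 1.5-fold line, Gfap at it, and Penk below the lower one, while Nes, Sox10 and Ngfr lie between the lines.

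In the authors' deposited table p lay under 0.05 for 4 of the 6 measured lineage genes, Fabp7, Gfap and Nes on the higher side and Penk on the lower side. Over all measured genes the authors' deposited table had 2.01% with such a p-value and a higher level, and 3.59% with a lower one. They cannot reflect the spread between cultures, since each genotype had 1 library. The p-value and fold of a gene together imply a standard error, and for the 8 genes this was 0.733 (Nes) to 1.30 times (Fabp7) the median of genes within 2-fold of the same level in the authors' deposited table. The same ratio in the authors' deposited table was 0.442 for Cdh19, 0.373 for Aldh1l1 and 0.485 for Sox9, whose p-values are therefore small for their folds.

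Other genes of the pathway were taken from 8 lists holding 103 distinct genes, of which 45 were measured. Of the 45, 1 was at least 1.5-fold higher and 1 (Crabp2) at least 1.5-fold lower. Their median was -0.12, against -0.05 for all measured genes, with 14 above and 31 below 0. Over all 11070 measured genes 6982 were below 0, a similar share. On a common FPKM sum, which put the median measured gene at 0.34, the medians of the lists with at least 5 measured genes, all negative as deposited, turned positive, so their signs hold only relative to the deposited scale.

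Genes of Schwann precursors and immature Schwann cells differed by small amounts. The median of the 9 measured was -0.24, none was at 1.5-fold, and 6 were below 0, a share near that of all measured genes. The precursor cadherin gene Cdh19 was at 2.63 FPKM in wild-type cells and 1.92 FPKM in knockout cells (-0.31), a value chosen after it was seen, like those of L1cam (-0.28) and Gap43 (-0.26), which encode an adhesion molecule and a growth cone protein of axons and early glia. On the other side, the repair-associated transcription factor gene Jun was at 11.1 and 14.0 FPKM (0.31) and the adhesion gene Ncam1, also named after its values were seen, at 34.4 and 42.2 FPKM (0.29). Of the 9, 4 lay at or below -0.25 and 2 at or above 0.25, a line drawn after values were seen. Over all measured genes 11.9% were that far down and 6.02% that far up. Restricted to means of 5 FPKM or more, the median of this list was 0.09, so its sign rests on low genes.

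Crest transcription factor genes lay on both sides of 0. Of 9 measured, 3 were above and 6 below, with a median of -0.07 and none at 1.5-fold. Sox9, which acts in crest specification and cartilage, was at 4.26 FPKM in wild-type cells and 5.39 FPKM in knockout cells (0.28). Myc, a growth regulator also used in crest cells, was at 7.60 and 5.07 FPKM (-0.50). The crest specifier Foxd3, named after its values were seen, was at 0.849 and 0.597 FPKM, below the measured limit.

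Of 11 myelin genes, 3 were measured, and Gjb1 and Mobp, which encode a gap junction protein and a myelin protein, were listed at 0 in both libraries (chosen after their values were seen). Egr2, the transcription factor of myelination, was at 1.43 FPKM in wild-type cells and 1.94 FPKM in knockout cells (0.28), and Pmp22, which fibroblasts also express, at 85.6 and 77.0 FPKM (-0.15).

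Of the genes around the receptors, those of ERBB3 differed by less than 0.25. For it, 7 genes of neuregulin and ERBB signalling were measured, with a median of -0.07. The ligand gene Nrg1 was at 8.81 FPKM in wild-type cells and 9.75 FPKM in knockout cells (0.13), and Erbin, which encodes an ERBB2-binding scaffold, was at 24.8 and 21.2 FPKM (-0.22). Erbb2, the partner of ERBB3 (named after its values were seen), was at 3.40 and 3.72 FPKM (0.10), several times the Erbb3 level. For Ngfr, 6 neurotrophin genes were measured, with a median of -0.07. Sorcs2, a sortilin-family receptor, was at 8.79 and 6.48 FPKM (-0.39).

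Other intermediate filament genes were not higher alongside Gfap and Nes. Outside the 8, 3 were measured, with a median of -0.03. Des, the desmin of muscle, was at 12.7 FPKM in wild-type cells and 9.80 FPKM in knockout cells (-0.34), Krt18 was at 1.32 and 1.33 FPKM (0.01), and the fibroblast filament gene Vim, named after its values were seen, at 558 and 546 FPKM (-0.03).

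Of the relatives of Fabp7 in the fatty acid and retinoid binding family, 5 were measured and 4 of them were below 0, with a median of -0.37. Crabp2, a retinoic acid binding protein gene, was at 12.4 FPKM in wild-type cells and 7.23 FPKM in knockout cells (-0.70), and Fabp4, the adipocyte form (named after its values were seen), was at 8.92 and 5.85 FPKM (-0.53).

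Penk was the one measured opioid precursor gene. Of the others, all named after their values were seen, Pomc was at 0.121 FPKM in wild-type cells and 0.0651 FPKM in knockout cells, Pnoc at 0.158 and 0.127 FPKM, and Pdyn at 0 in both. The receptor genes Oprm1, Oprd1 and Oprk1 were also listed at 0 in both libraries. Cpe, an enzyme that trims peptide precursors, was at 27.7 FPKM in wild-type cells and 23.2 FPKM in knockout cells (-0.24), and Ogfr, an opioid growth factor receptor gene of another family, at 6.20 and 6.09 FPKM (-0.02).

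**Figure D3:**
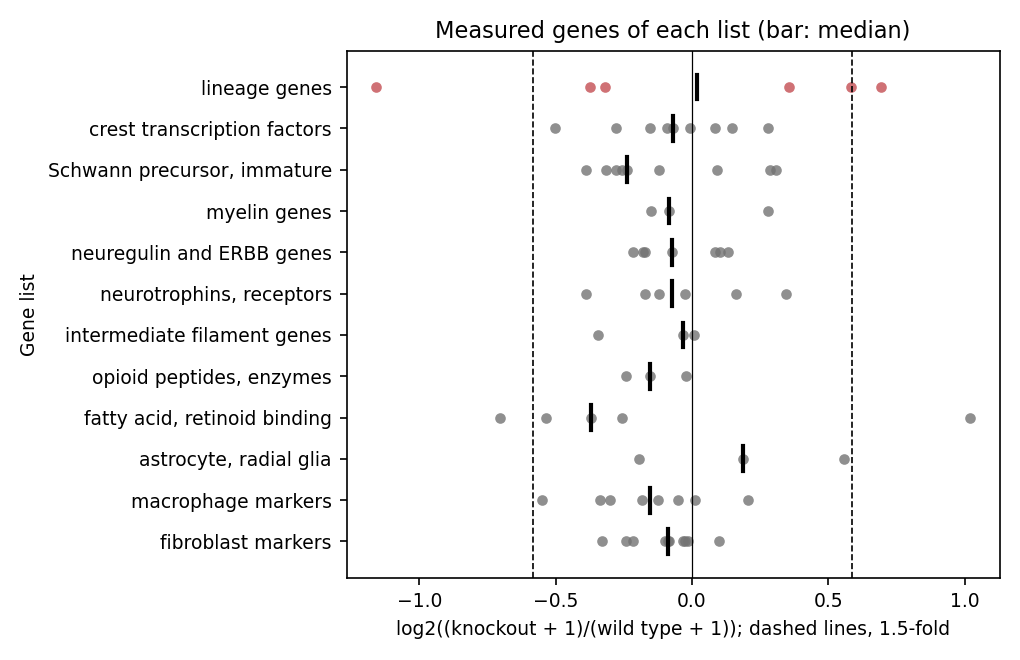
Difference between libraries (log2 ratio with 1 FPKM added) for the measured genes of the 8 lineage genes (red), the 8 role lists and 3 lists of cell type markers (grey), with a bar at each median and dashed lines at 1.5-fold. The 6 measured lineage genes run from -1.16 to 0.69, and among the grey points 2 lie beyond a dashed line, the lower of them Crabp2.

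Markers of other cell types set the lineage genes in context. All 10 fibroblast markers were measured and summed to 3761 FPKM in wild-type cells and 3526 FPKM in knockout cells, with a median log2 ratio of -0.09, and the collagen gene Col1a1 was at 957 and 939 FPKM, so the labelled cell type was matched. Of 8 astrocyte and radial glia markers, which overlap with Fabp7 and Gfap in use, 3 were measured and the list summed to 7.79 and 9.09 FPKM. The water channel gene Aqp4 was at 1.71 FPKM in wild-type cells and 2.99 FPKM in knockout cells (0.56), Slc1a3 was at -0.19, and Hes5 was listed at 0 in both. Of 8 melanocyte markers, another crest derivative, 5 were listed at 0 in both libraries, the pigment genes Tyr, Dct and Tyrp1 among them, and the list summed to 2.77 and 2.83 FPKM, nearly all of it Mitf.

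Among 11 neuron marker genes, 10 were matched, 2 were measured and the list summed to 8.59 FPKM in wild-type cells and 8.63 FPKM in knockout cells, with Th at 0 in both. Oligodendrocyte markers summed to 5.97 and 5.30 FPKM, mostly Cspg4 (5.64 and 4.88 FPKM), with Mobp at 0 in both. For the other sources of Nes, skeletal muscle markers summed to 12.8 and 9.83 FPKM, nearly all of it Des, with Myod1, Myog, Myf5 and Ckm at 0 in both, and endothelial markers to 11.6 and 10.2 FPKM, mostly Flt1, with Tie1 at 0 in both. For S100b, chondrocyte markers summed to 4.89 and 8.62 FPKM, mostly Sox9 (4.26 and 5.39 FPKM), which is also on the crest list. The cartilage collagen gene Col2a1 was at 0.265 and 2.76 FPKM (1.57). Under the measured limit, Col9a1 was also higher (0.00916 and 0.148 FPKM), Acan was at 0.228 and 0.222 FPKM, and Hapln1 was lower (0.0977 and 0.0225 FPKM). All 8 macrophage markers were measured, 6 of them below 0, and summed to 107 and 86.6 FPKM, with Cd68 at 28.3 and 19.0 FPKM (-0.55) and Aif1 at 3.55 and 4.25 FPKM (0.21). These lists were lower or higher beside the lineage genes in the same pair of libraries, and their part in the differences was not tested.

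With 2 libraries, likeness to another gene means only a similar pair of values. The 3 measured genes nearest to Fabp7, by distance over the pair of log2(FPKM + 1) values, were Atp5j2 (18.0 FPKM in wild-type cells, 27.8 FPKM in knockout cells), Rab24 (16.0 and 24.8 FPKM) and Tomm6 (16.1 and 24.7 FPKM), at distances of 0.12, 0.14 and 0.14. Nearest to Penk were Ptgds (10.0 and 3.91 FPKM), Cxcl5 (11.8 and 5.53 FPKM) and Bcl2a1b (12.7 and 5.67 FPKM), at distances of 0.22, 0.26 and 0.32.

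The signs of 6 of the 8 genes were the same under each of the 7 alternative settings that kept the gene. Fabp7, Gfap and Nes stayed above 0 and Penk, Sox10 and S100b below it. Part of this was fixed in advance. Another pseudocount cannot reverse a sign, none of the 8 names was repeated, and the stricter mean leaves a kept ratio as it was. Every scaling raised knockout levels relative to wild type, so Fabp7, Gfap and Nes could not fall below 0. Only the lower genes could change sign, and only under the scalings. Ngfr and Erbb3 turned to 0.08 and 0.05 on a common FPKM sum, a scaling that raised the median measured gene to 0.34. The plot of ratios by scaling gives these values.

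**Figure D4:**
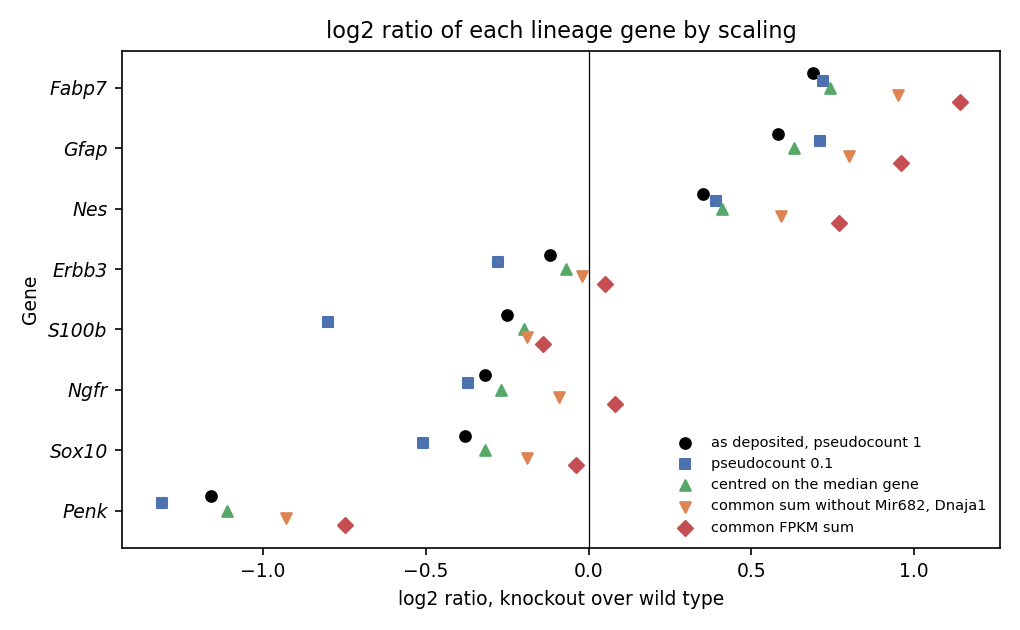
log2 ratio of each of the 8 genes, knockout over wild type, under 5 of the settings. Fabp7, Gfap and Nes lie to the right of 0 and Penk, Sox10 and S100b to the left under all 5, and on a common FPKM sum (diamonds) Sox10 comes to -0.04 while Ngfr and Erbb3 cross 0.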

How the data were processed

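Gene expression was measured by RNA sequencing, with 1 library of wild-type and 1 of Sptbn1 knockout fibroblasts. Per the submitters' processing notes and the series' design text, reads were checked with FastQC and Trimmomatic, aligned with TopHat2 2.0.10 to NCBI mouse build 37.2 and quantified with Cufflinks, and Cuffdiff2 gave the comparison. Per the file headers, the authors deposited FPKM for each library and a p-value per gene. The header of the wild-type column (WT) also shows a -/- mark. It was assigned by its match to the sample title WT, and all directions depend on that assignment. A value of 0 may be a failed estimate.

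Where a name was repeated, the row of highest mean was kept (25587 rows, 25430 names). Symbols absent from the table were matched through older names in RefSeq (GRCm38.p6), which applied to 4 of the 103 list genes. Ratios used a pseudocount of 1 FPKM and a mean of at least 1 FPKM counted as measured. Promoter windows came from RefSeq. The arithmetic was checked on wild-type values multiplied by known folds with no noise added, which says nothing about how reliable the differences are. Python 3.11.15, pandas 2.3.3 and numpy 2.4.6 were used. The members and lists were chosen with earlier results of these data known. From each list the highest and lowest measured gene and any past 1.5-fold were named by rule. Others were named after their values were seen. Some genes meeting the rule are not reported here. Alternatives were another pseudocount, 4 scalings, summed rows and a mean of 5 FPKM or more. Sequencing depth is unknown, so no interval or detection floor was computed.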

Additional observations from a re-analysis of the deposited data

How the results depend on the processing

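With 1 library per genotype no replicate could be left out. No paired analysis was possible because each genotype had 1 library. A ratio is said to have moved when it shifted by 0.1 or more on the log2 scale, since no spread between replicates exists, and the cause of each move was not tested beyond the arithmetic of the setting. Summing repeated names moved nothing. A common upper quartile and centring on the median gene each put 2 lineage genes, in place of 1, at least 1.5-fold higher. Of all measured genes 1.24% and 1.26% were that much higher there. A pseudocount of 0.1 FPKM also gave 2, beside 1.87% of all measured genes. It put Gfap at 0.71, Sox10 at -0.51, Penk at -1.31, S100b at -0.80 and Erbb3 at -0.28. A mean of 5 FPKM or more left 4 lineage genes and put the median of the Schwann precursor list at 0.09 and that of macrophage markers at -0.30.

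A common FPKM sum moved most. Fabp7 came to 1.14, Gfap to 0.96, Nes to 0.77, Erbb3 to 0.05, Ngfr to 0.08, Sox10 to -0.04, S100b to -0.14 and Penk to -0.75, and the median of the measured members to 0.43. There 3 members were at least 1.5-fold higher, 1 was at least 2-fold higher and 0 at least 2-fold lower. Over all 11070 measured genes 933 were at least 1.5-fold higher and 47 lower, against 115 and 136 as deposited. At 2-fold 100 were higher and 26 lower, against 40 and 42 as deposited. The list medians there were 0.33 for crest transcription factors and for neuregulin genes, 0.17 for Schwann precursor genes, 0.30 for neurotrophins, 0.09 for fatty acid binding proteins, 0.26 for macrophage and 0.37 for fibroblast markers, with 1, 2, 2 and 1 genes at least 1.5-fold apart among transcription factors, Schwann precursor genes, neurotrophins and fatty acid binding proteins. Without Mir682 and Dnaja1 in the sum, a setting chosen after seeing the data, Fabp7 was at 0.95, Gfap at 0.80, Nes at 0.59, Ngfr at -0.09, Sox10 at -0.19 and Penk at -0.93. The median of the measured members was 0.25, with 3 members at least 1.5-fold higher and 0 at least 2-fold lower. Over all measured genes 316 (2.85%) were at least 1.5-fold higher, 69 at least 1.5-fold lower and 28 at least 2-fold lower. List medians there were 0.15 for transcription factors, 0.16 for neuregulin genes, 0.00 for Schwann precursor genes, 0.14 for neurotrophins, -0.11 for fatty acid binding proteins (1 gene at least 1.5-fold apart), 0.09 for macrophage and 0.17 for fibroblast markers.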
